A study of Mus musculus with 6 samples.

Results

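Nucleic acid sensors were examined in mouse bone marrow–derived macrophages (BMDMs) exposed to hypoxia with serum starvation (HSS), a culture model of ischemia. The set was a list of 10 genes chosen by name and function, with no cut on measured values but with earlier results of these data known: *Rigi*, *Ifih1*, *Dhx58*, *Mavs*, *Cgas*, *Sting1*, *Zbp1*, *Tlr3*, *Tlr7* and *Tlr9*. These are 10 of the 36137 genes to which the transcripts in the files could be assigned, and all 10 were among the 18506 genes with enough counts to be tested. The question was whether loss of the mitochondrial fission GTPase DRP1 changed the RNA of these genes in ischemic macrophages.

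Both genotypes carried 1 copy of Cre recombinase under the lysozyme M promoter (LysM-Cre+/-), which is active in myeloid cells. WT cells came from LysM-Cre+/- Drp1+/+ mice and Drp1 KO cells from LysM-Cre+/- Drp1 fl/fl mice, both sexes at 8 to 12 weeks of age, so the deletion was limited to lysozyme M–expressing cells. For BMDM cultures the marrow of 2 mice of a genotype was combined, and it is not stated whether each library came from a separate pool, so the p-values measure the spread between libraries, which may in part be technical. Cells grown with 10% L929-conditioned medium were moved on day 7 to serum-free endothelial starvation medium at 2.1% oxygen, and after 8 hours their poly(A) RNA gave 3 WT and 3 Drp1 KO libraries. These culture conditions are those of the sample labels, and the study's methods state a different oxygen level and share of L929 medium. No library from cells outside HSS was analysed here, so the comparison is between genotypes under HSS alone.

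Cells detect foreign or misplaced nucleic acid by where it lies and what kind it is. In the cytosol, RIG-I and MDA5 bind double-stranded or uncapped RNA and signal through MAVS on the mitochondrial surface, while cGAS binds DNA and makes a cyclic dinucleotide that activates STING at the endoplasmic reticulum. ZBP1 binds left-handed nucleic acid, and TLR3, TLR7 and TLR9 survey RNA and DNA inside endosomes. These routes converge on the kinases and transcription factors that induce type I interferon, which in turn raises many genes through the interferon-stimulated response element (ISRE), a DNA sequence near their promoters.

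The ISRE core, taken as GAAA, any 2 bases and GAAA on either strand, was searched from 250 bases before to 50 bases after the first transcribed base of each sensor's canonical transcript (GRCm39 genome, GENCODE transcripts). It occurred in 4 of the 10 windows (40%), against 3.84% of the windows of 21770 protein-coding genes. The stretches holding it are printed below because these 4 genes rose in Drp1 KO and kept that call in every setting tried. They also had the 4 largest log2 fold changes, but the fourth place was narrow, with *Ifih1* at 1.06 and *Tlr3*, which has no match, at 1.05. *Tlr3* was the higher of the pair without library 2 or 3 of WT or library 1 or 2 of Drp1 KO. Each runs 5′ to 3′ on the strand of the gene, which is the minus strand for all 4, and capitals mark the ISRE core matches. The *Rigi* stretch is chr4:40239804-40239833, within exon 1 ahead of the start codon. The *Ifih1* stretch is chr2:62476548-62476577, also in exon 1 ahead of the start codon. The *Dhx58* stretch, chr11:100595082-100595111, spans the start of exon 1. The *Zbp1* stretch, chr2:173060735-173060834, lies from 110 to 11 bases before the first transcribed base.
Rigi: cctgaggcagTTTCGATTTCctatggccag
Ifih1: gaagagaatcGAAACAGAAAccgatctgtg
Dhx58: cctccccttgTTTCAGTTTCatttctagag
Zbp1: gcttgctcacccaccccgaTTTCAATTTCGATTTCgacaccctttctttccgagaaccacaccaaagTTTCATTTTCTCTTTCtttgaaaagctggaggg

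*Zbp1* held 4 matches in 2 overlapping pairs, starting 91, 85, 43 and 37 bases before the first transcribed base. The single match of *Rigi* started 11 bases after that base and that of *Ifih1* 40 bases after it, and that of *Dhx58* ran from 4 bases before it to 5 bases after it. No ISRE core was found in the canonical windows of *Cgas*, *Sting1*, *Mavs*, *Tlr3*, *Tlr7* or *Tlr9*. Away from the canonical starts, the windows of 2 transcripts with a mean of at least 0.5 TPM in a genotype also held 1 match each: Sting1-206, a retained intron form that starts 1646 bases downstream and was at 2.20 ± 0.872 TPM in WT and 2.88 ± 0.542 TPM in Drp1 KO, and Rigi-208, which starts 31039 bases downstream and was at 6.31 TPM in WT and 5.86 TPM in Drp1 KO. A second motif, the interferon-gamma activated sequence (GAS, taken as TTC, any 3 bases and GAA), occurred in the windows of *Zbp1*, with 2 matches of which the one starting 30 bases before the first transcribed base overlaps an ISRE match, and *Sting1*, with 1. It was present in 8.82% of all protein-coding windows. A match is a string of letters in a short window and does not show that a factor was bound there.

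**Figure D1:**
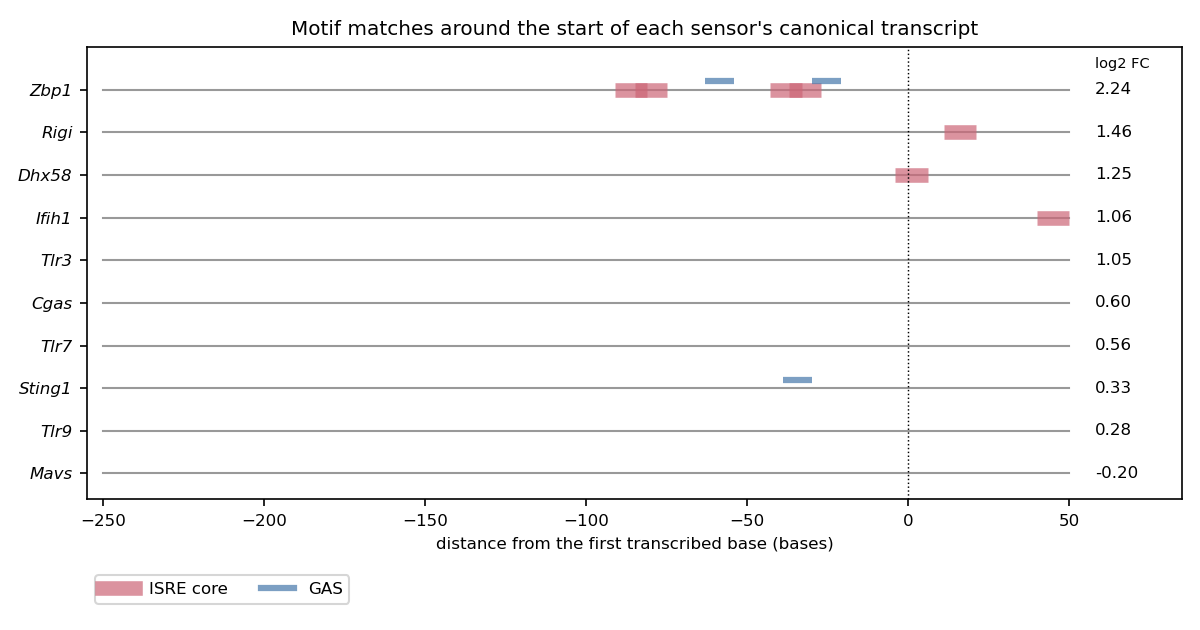
ISRE core (thick red) and GAS (thin blue) matches within 250 bases before and 50 bases after the first transcribed base of the 10 sensors, drawn to scale, with the log2 fold change (Drp1 KO over WT) of each gene at the right and the genes in that order. The 4 genes with an ISRE core match, *Zbp1*, *Rigi*, *Dhx58* and *Ifih1*, have log2 fold changes of 2.24, 1.46, 1.25 and 1.06, and the other 6 lie between -0.20 and 1.05.

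Depth was similar across libraries, from 23389488 to 32231206 estimated reads, and a floor of 3 counts corresponded to 0.0931 to 0.128 CPM (counts scaled to a common library size), below every sensor in every library. All 9 macrophage markers exceeded 1 CPM in every library. The targeted gene *Dnm1l*, which encodes DRP1, was at 72.6 ± 2.61 CPM (SD, n = 3) in WT and 61.9 ± 3.91 CPM in Drp1 KO, with no overlap between groups and a log2 fold change of -0.23 that did not pass the test (adjusted p = 0.248). Counts of whole transcripts do not resolve the floxed part of the gene, so this neither supports nor contradicts the labels. On the second principal component, 30.0% of the variance, libraries 1 of both genotypes lay apart from libraries 2 and 3, while the first, with 47.5%, set the genotypes apart. Deviations from the group mean correlated between libraries of the same number (0.539, 0.218 and 0.352). Pairs with different numbers ranged from -0.481 to 0.339, which overlaps these values, so the data do not single out this pairing. A fit with the library number as a block is given beside results whose call it changed. Results are also given without both libraries 1.

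Of the 10 sensors, 5 rose in Drp1 KO BMDMs at a Benjamini-Hochberg adjusted p under 0.05 in edgeR's quasi-likelihood test and none fell. Over all 18506 genes tested, 424 (2.29%) rose and 197 (1.06%) fell. The 5 were *Zbp1*, *Rigi*, *Dhx58*, *Ifih1* and *Tlr3*. With libraries paired by number, *Cgas* and *Tlr7* also passed, giving 7 of 10, against 6.73% of all genes higher in that fit. Without both libraries 1, *Cgas*, *Tlr7* and *Tlr9* passed as well, giving 8 of 10, against 5.94% of all genes higher in that fit. On the CPM scale, every Drp1 KO library of 9 sensors lay above every WT library, an arrangement found in 11.7% of all genes. The exception was *Mavs*, and no sensor had every Drp1 KO library below every WT library, which occurred in 10.3% of all genes. On the TPM scale 7 sensors were separate upward, *Sting1* and *Tlr9* overlapped, and *Mavs* was lower in every Drp1 KO library than in any WT library, arrangements found upward in 7.15% and downward in 14.5% of all genes on that scale. The median log2 fold change of the 10 sensors was 0.83, and that of all genes tested was 0.0046. These are bulk libraries, in which more cells of a type and more RNA per cell cannot be told apart.

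**Figure D2:**
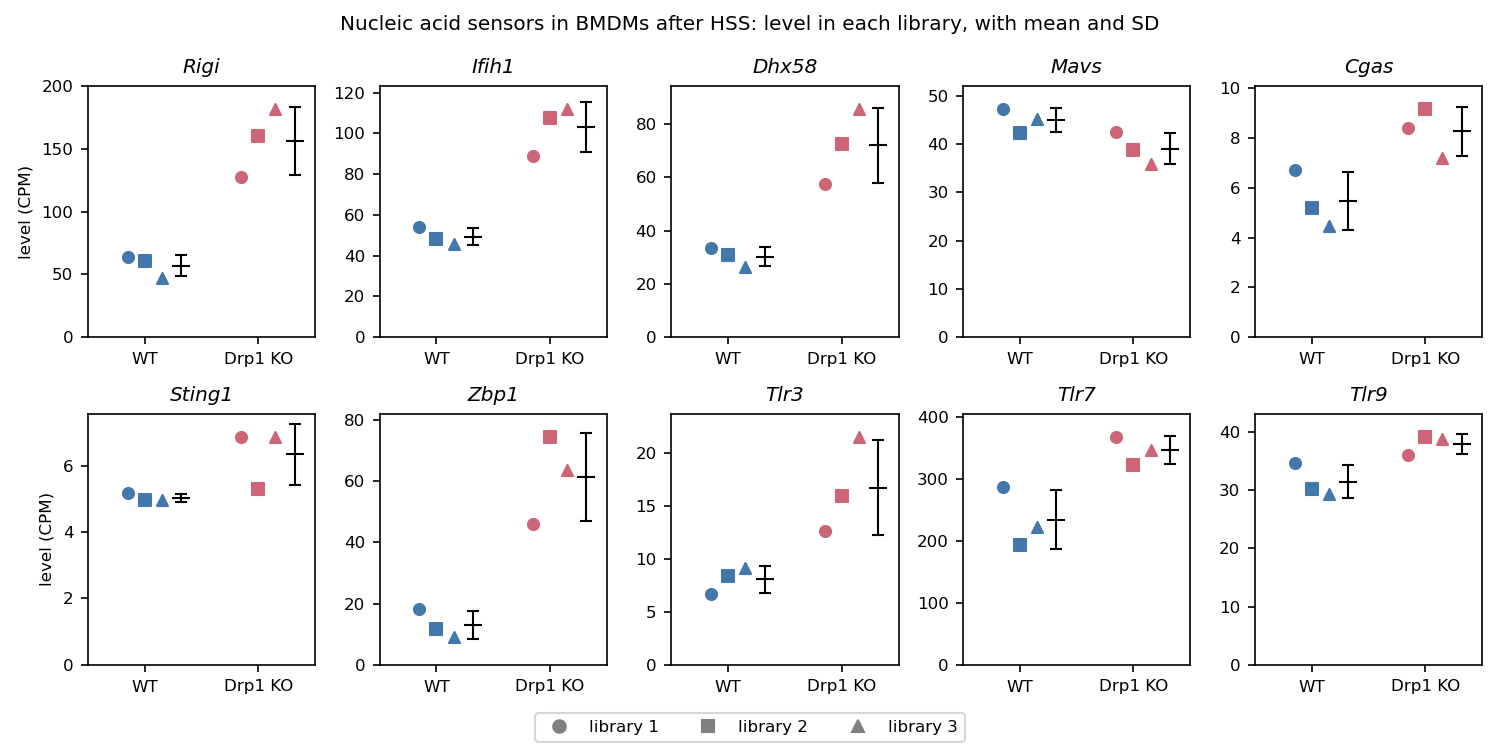
Level of each sensor in CPM (linear axis from 0) in the 3 WT (blue) and 3 Drp1 KO (red) libraries, with symbols for library number and black bars for mean ± SD. The groups are far apart for *Rigi*, *Ifih1*, *Dhx58* and *Zbp1*, close together for *Cgas*, *Sting1* and *Tlr9*, and overlap for *Mavs*.

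The cytosolic RNA receptors moved together. *Rigi* (ENSMUSG00000040296; chromosome 4, 40203772 to 40239852, minus strand) encodes RIG-I, the helicase that recognises RNA with a 5′ triphosphate end. Its level was 63.5, 60.4 and 47.3 CPM in WT libraries 1 to 3 and 128, 160 and 182 CPM in Drp1 KO libraries 1 to 3. The lowest Drp1 KO library was thus 2.01 times the highest WT library. The means were 57.1 ± 8.59 and 156 ± 27.3 CPM (SD, n = 3), a 2.74-fold rise (log2 fold change 1.46, SE 0.151, adjusted p = 0.000712). The log2 fold change ran from 1.32 to 1.57 when any 1 library was left out, and *Rigi* passed in all 15 other settings tried.

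*Ifih1* (ENSMUSG00000026896; chromosome 2, 62425714 to 62476607, minus strand) encodes MDA5, the helicase that binds long double-stranded RNA. WT libraries had 53.9, 48.1 and 45.8 CPM and Drp1 KO libraries 89.1, 108 and 112 CPM. All Drp1 KO libraries were high and the 3 WT libraries formed a narrow low group, with the lowest Drp1 KO value 1.65 times the highest WT value. The mean went from 49.3 ± 4.19 to 103 ± 12.2 CPM, with a log2 fold change of 1.06 (SE 0.115, adjusted p = 0.000903). It also passed in all 15 other settings, and the log2 fold change stayed between 1.001 and 1.15 with 1 library left out.

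*Dhx58* (ENSMUSG00000017830; chromosome 11, 100585710 to 100595097, minus strand) encodes LGP2, a relative of both helicases that lacks the signalling domain and tunes their activity. Levels were 33.3, 31.0 and 26.3 CPM in WT and 57.6, 72.6 and 85.8 CPM in Drp1 KO libraries 1 to 3. As for *Rigi* and *Ifih1*, the lowest Drp1 KO library was number 1 and the highest was number 3, and the groups did not overlap. The rise was 2.39-fold (log2 fold change 1.25, SE 0.151, adjusted p = 0.00170), and it passed in all 15 other settings.

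*Mavs* (ENSMUSG00000037523; chromosome 2, 131075442 to 131096740, plus strand), the mitochondrial adaptor through which RIG-I and MDA5 signal, did not follow its receptors. WT libraries had 47.3, 42.3 and 45.2 CPM and Drp1 KO libraries 42.4, 38.8 and 36.0 CPM. Drp1 KO library 1 lay just above WT library 2, so the groups overlapped, although in each numbered pair the Drp1 KO library was the lower. The log2 fold change was -0.20 (SE 0.102, adjusted p = 0.371), and *Mavs* passed in none of the other settings (lowest adjusted p 0.142, in the paired fit). On the deposited TPM scale, which allows for transcript length, *Ifih1* was at 0.979, 1.003 and 0.868 times *Mavs* in WT libraries 1 to 3 and at 1.81, 2.47 and 2.70 times *Mavs* in Drp1 KO libraries 1 to 3. The corresponding ratio for *Rigi* was 1.33, 1.89 and 1.34 in WT and 3.33, 4.78 and 5.62 in Drp1 KO. *Mavs* itself was at 22.4, 19.4 and 22.3 TPM in WT and 18.1, 17.2 and 16.6 TPM in Drp1 KO. On these gene sums, receptor transcripts per adaptor transcript were higher in every Drp1 KO library than in any WT library. Protein-coding transcripts held 49.4% to 72.2% of *Rigi* TPM in WT and 59.0% to 63.5% in Drp1 KO. For *Mavs* they held 90.5% to 96.9% and 92.2% to 94.1%, so the *Rigi* ratios overstate coding transcripts. The canonical transcripts of *Rigi* and *Mavs* had means of 18.2 and 16.1 TPM in WT and 47.0 and 12.2 TPM in Drp1 KO.

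In the cytosolic DNA pathway the differences were smaller. *Cgas* (ENSMUSG00000032344; chromosome 9, 78337802 to 78350535, minus strand), which encodes the DNA-binding cyclic GMP-AMP synthase, was at 6.73, 5.17 and 4.46 CPM in WT and 8.40, 9.17 and 7.21 CPM in Drp1 KO libraries. The groups did not overlap, but the lowest Drp1 KO library was only 1.07 times the highest WT library. The log2 fold change of 0.60 (SE 0.186) did not pass (adjusted p = 0.126). With libraries paired it was 0.61 and passed (adjusted p = 0.0173), and it passed in 3 of the 15 other settings, which besides the pairing were those without WT library 1 (adjusted p = 0.0443) and without both libraries 1 (adjusted p = 0.0261). A long noncoding gene on the opposite strand of *Cgas* was assigned 20 counts over all 6 libraries, and how reads were divided between that gene and *Cgas* was not tested.

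*Sting1* (ENSMUSG00000024349; chromosome 18, 35866732 to 35873607, minus strand) encodes STING, the adaptor activated by the product of cGAS. It was at 5.17, 4.95 and 4.97 CPM in WT and 6.86, 5.29 and 6.87 CPM in Drp1 KO. The 3 WT libraries agreed closely and Drp1 KO library 2 lay almost at their level. The log2 fold change was 0.33 (SE 0.166, adjusted p = 0.368), and none of the other settings brought it past the threshold. Much of the *Sting1* signal lay outside the canonical coding transcript, which held 22.5% to 38.8% of the gene's TPM in WT and 11.6% to 27.4% in Drp1 KO. Transcripts annotated as retained introns held 28.7% to 71.9% in WT and 28.4% to 58.3% in Drp1 KO. The gene total was also uneven on the TPM scale, at 6.65, 4.45 and 13.5 TPM in Drp1 KO libraries 1 to 3, because a 334-base transcript was assigned 7.33 TPM in library 3 and 0.115 and 0 TPM in libraries 1 and 2.

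*Zbp1* (ENSMUSG00000027514; chromosome 2, 173033815 to 173060724, minus strand), which encodes the Z-form nucleic acid sensor that can engage RIPK3 and cell death, had the largest fold change of the 10. Its level was 18.3, 11.8 and 9.23 CPM in WT libraries 1 to 3 and 46.1, 74.6 and 63.7 CPM in Drp1 KO libraries 1 to 3. WT library 1 was the highest of the WT libraries and Drp1 KO library 1 the lowest of the Drp1 KO libraries, and still the second was 2.52 times the first. The means of 13.1 ± 4.66 and 61.5 ± 14.4 CPM gave a 4.71-fold rise (log2 fold change 2.24, SE 0.246, adjusted p = 0.0010). Leaving out 1 library moved the log2 fold change between 2.02 and 2.55, and the call held in all 15 other settings. Both main transcripts were higher: the canonical 1989-base transcript went from 5.53 ± 1.85 to 20.8 ± 4.47 TPM and a 770-base coding transcript from 11.5 ± 4.92 to 59.3 ± 15.6 TPM. The canonical form held 28.2% to 38.4% of *Zbp1* TPM in WT and 24.0% to 26.3% in Drp1 KO, so the short form was the larger share in both genotypes.

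Among the endosomal receptors, *Tlr3* (ENSMUSG00000031639; chromosome 8, 45848702 to 45864117, minus strand), the receptor for double-stranded RNA, was the only one past the threshold. It was at 6.64, 8.40 and 9.13 CPM in WT and 12.7, 15.9 and 21.5 CPM in Drp1 KO libraries 1 to 3. No library overlapped, the lowest Drp1 KO value being 1.39 times the highest WT value. The mean rose from 8.06 ± 1.28 to 16.7 ± 4.48 CPM (log2 fold change 1.05, SE 0.202, adjusted p = 0.0211). This call was the least firm of the 5. It was lost with length-scaled counts (log2 fold change 0.76, adjusted p = 0.0962) and on leaving out library 2 of WT (adjusted p = 0.106) or of Drp1 KO (0.0794), or library 3 of WT (0.0618) or of Drp1 KO (0.0621), and the direction was the same throughout.

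The *Tlr3* difference was uneven across its annotated transcripts. The canonical 4096-base transcript, Tlr3-205, was at 0.455, 1.07 and 0.894 TPM in WT and 2.54, 4.29 and 5.21 TPM in Drp1 KO libraries 1 to 3. Its group means were 4.99-fold apart and every Drp1 KO library was above every WT library. The 4407-base Tlr3-201, which starts 331 bases upstream, was at 1.60 ± 0.358 TPM in WT and 1.41 ± 0.214 TPM in Drp1 KO, and the 707-base Tlr3-209, which starts 231 bases upstream, was at 1.87 TPM in both. Tlr3-205 thus held 6.98% to 20.7% of *Tlr3* TPM in WT and 34.5% to 45.7% in Drp1 KO. These are kallisto's apportionments of reads among overlapping transcripts at low levels, and they were compared as values with no test. No ISRE core lay in the 300-base window around the start of any of these 3 transcripts.

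**Figure D3:**
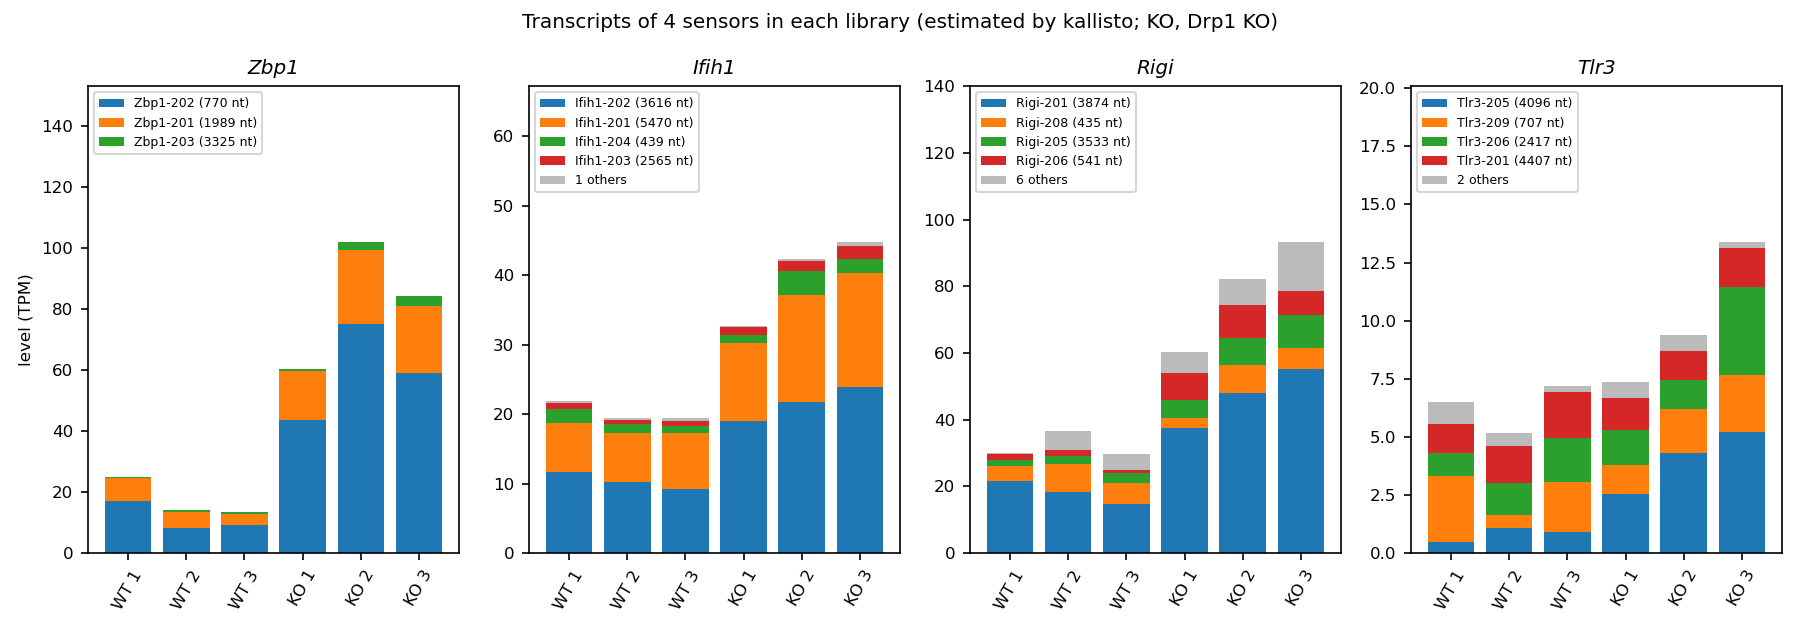
Stacked bars of the estimated TPM of the transcripts of *Zbp1*, *Ifih1*, *Rigi* and *Tlr3* in each library (linear axes from 0, differing between panels), with the 4 most abundant transcripts of a gene coloured and the others in grey. In *Tlr3* the lowest segment, Tlr3-205, goes from a mean of 0.805 TPM in WT to 4.01 TPM in Drp1 KO while Tlr3-201 is at 1.60 and 1.41 TPM.

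*Tlr7* (ENSMUSG00000044583; chromosome X, 166086758 to 166113605, minus strand), the receptor for single-stranded RNA, was by far the most abundant sensor. Its level was 287, 193 and 222 CPM in WT and 368, 323 and 347 CPM in Drp1 KO libraries 1 to 3. WT library 1 was the highest WT library and the lowest Drp1 KO library exceeded it by a factor of 1.12. The log2 fold change was 0.56 (SE 0.139) and fell short of the threshold (adjusted p = 0.0603). It passed in 7 of the 15 other settings, including the paired fit (log2 fold change 0.58, adjusted p = 0.00164), DESeq2 (adjusted p = 0.00910) and the fit without WT library 1 (adjusted p = 0.00752), and over all settings the adjusted p ranged from 0.00164 to 0.284.

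*Tlr9* (ENSMUSG00000045322; chromosome 9, 106099797 to 106104082, plus strand), the receptor for unmethylated CpG DNA, was at 34.6, 30.3 and 29.3 CPM in WT and 36.0, 39.2 and 38.7 CPM in Drp1 KO. The groups were separate by a factor of only 1.04. The log2 fold change of 0.28 (SE 0.105) did not pass (adjusted p = 0.218), nor did it with pairing (adjusted p = 0.0794), while without both libraries 1 it was 0.38 and passed (adjusted p = 0.0281).

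**Figure D4:**
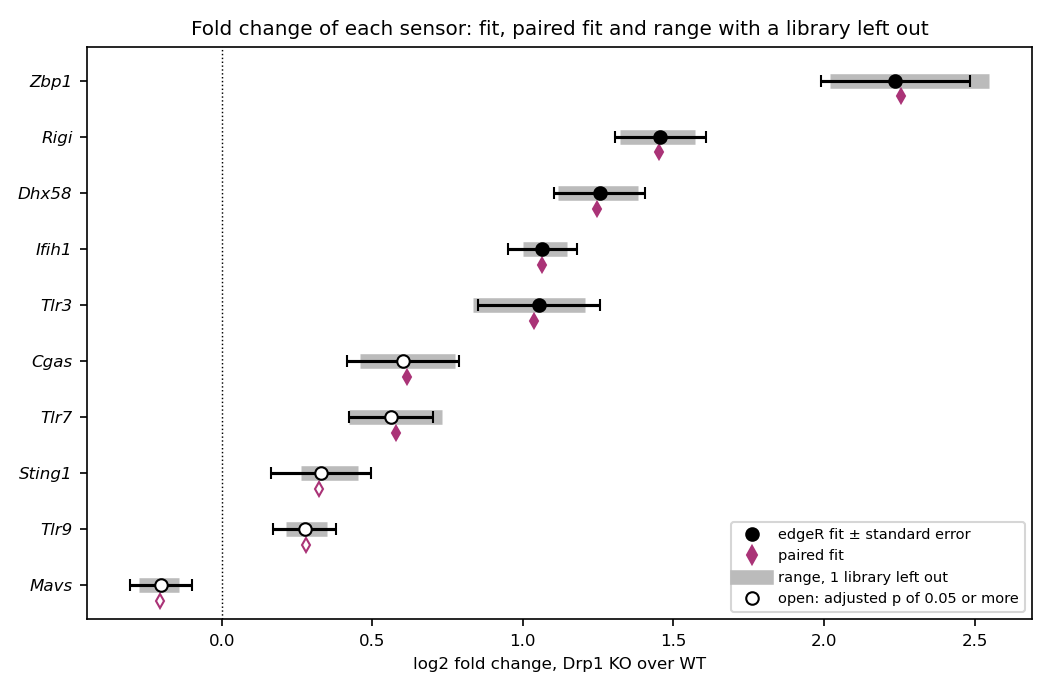
Log2 fold change of each sensor (Drp1 KO over WT) from the edgeR fit (circles, with bars of ± 1 standard error), from the paired fit (diamonds) and over the 6 fits with 1 library left out (grey range), filled where the adjusted p was under 0.05. *Zbp1*, *Rigi*, *Dhx58*, *Ifih1* and *Tlr3* are filled in the unpaired fit, *Cgas* and *Tlr7* in the paired fit alone, and *Mavs* is the only gene below 0.

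Because the sensors differ in transcript length, their order was read on the TPM scale. In WT, *Tlr7* was highest at 141 ± 20.9 TPM, followed by *Rigi* at 32.1, *Mavs* at 21.4, *Ifih1* at 20.3, *Dhx58* at 19.4, *Zbp1* at 17.4, *Tlr9* at 11.6, *Tlr3* at 6.28, *Sting1* at 5.13 and *Cgas* at 2.11 TPM. The ranges over libraries overlapped between the neighbours *Mavs* and *Ifih1*, *Ifih1* and *Dhx58*, *Dhx58* and *Zbp1*, and *Tlr3* and *Sting1*. The place of *Rigi* rests on the sum of all its transcripts, of which protein-coding ones held 49.4% to 72.2% of the TPM in WT. Its canonical transcript alone was at 18.2 ± 3.41 TPM in WT and that of *Mavs* at 16.1 ± 1.76 TPM, with overlapping library ranges. In Drp1 KO, *Tlr7* stayed first at 197 TPM, but *Zbp1* at 82.3 and *Rigi* at 78.6 TPM, whose ranges overlapped, came next, and *Mavs* stood sixth at 17.3 TPM behind *Dhx58* (42.3) and *Ifih1* (40.0). Neighbours with overlapping ranges in Drp1 KO were also *Dhx58* and *Ifih1*, *Tlr9* (13.2) and *Tlr3* (10.0), and *Tlr3* and *Sting1* (8.21 ± 4.73). *Cgas* was the lowest sensor in both genotypes.

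*Tlr7* and *Tlr9* are also abundant in plasmacytoid dendritic cells and B cells, and *Tlr3* in some conventional dendritic cells and fibroblasts, so markers of these cells were read in the same libraries. The 7 plasmacytoid markers summed to 104.7 to 124.5 CPM in WT and 112.1 to 144.5 CPM in Drp1 KO, mostly from *Tcf4*, with *Siglech* under 1 CPM in every library and *Klk1* at 0. All 5 of the 7 that were tested had log2 fold changes above 0 and none passed, but *Cox6a2*, at 0.477 to 0.733 CPM in WT and 1.07 to 2.09 CPM in Drp1 KO, and *Bcl11a*, at 3.49 to 5.01 and 6.36 to 8.93 CPM, did not overlap between groups and passed with pairing (log2 fold changes 1.45 and 0.75, adjusted p = 0.0654 and 0.0748 unpaired, 0.00780 and 0.00992 paired). Of all genes, 11.7% had every Drp1 KO library above every WT library, and 6.73% were higher with pairing. The 5 B cell markers summed to 3.54 to 5.65 CPM in WT and 5.72 to 6.84 CPM in Drp1 KO. Conventional dendritic cell markers (7 genes, mostly *Itgax*, with *Cd209a* at 0) were at 48.4 to 66.8 CPM in WT and 34.4 to 55.1 CPM in Drp1 KO. Fibroblast markers (5 genes) lay between 1.80 and 3.06 CPM throughout. The 8 neutrophil markers were at 6.86, 19.1 and 21.1 CPM in WT and 20.5, 48.4 and 46.3 CPM in Drp1 KO, with *Ly6g* at 0 and libraries 1 lowest in each genotype. None of the 6 tested passed in the unpaired fit, and with pairing 4 were higher (66.7%, against 6.73% of all genes). Their part in the sensor results was not tested. Of the 9 macrophage markers, *Fcgr1*, an Fc receptor gene, rose (log2 fold change 1.34, adjusted p = 0.000322), and *Csf1r* and *Mertk*, which encode the M-CSF receptor and a receptor for apoptotic cells, fell (both -0.52, adjusted p = 0.0340 and 0.0236). Over all genes in that fit, 2.29% rose and 1.06% fell. The *Csf1r* call was lost with length-scaled counts (adjusted p = 0.208) and with any library but Drp1 KO library 1 left out (0.0635 to 0.133), and that of *Mertk* on leaving out library 2 or 3 of either genotype (0.0621 to 0.118).

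Around the 10 sensors, 4 lists of pathway partners held 107 genes, of which 106 were tested. In the unpaired fit 13 (12.3%) rose, against 2.29% of all genes, and none fell. The median log2 fold change of the 106 was 0.04, and 66 (62.3%) were above 0, against 50.6% of all genes. Among 26 other sensors, 6 rose (23.1%) and none fell. With pairing 11 were higher and 1 lower (42.3% and 3.85%, against 6.73% and 5.22% of all genes). *Oasl1*, an OAS family member that restrains *Irf7* translation, was at 3.75, 1.72 and 1.26 CPM in WT and 30.2, 23.3 and 25.2 CPM in Drp1 KO (log2 fold change 3.57, SE 0.314, adjusted p = 0.000389). Every Drp1 KO library lay far above every WT library. *Oas3*, *Oas2* and *Oas1a*, which belong to the family that makes the 2′-5′ oligoadenylate signal on binding double-stranded RNA, had log2 fold changes of 2.50, 1.91 and 1.30 (adjusted p = 0.00111, 0.000624 and 0.00556). Without WT library 2, *Oas1a* no longer passed (adjusted p = 0.0539). The OAS genes and *Ifi204* have close paralogs, between which kallisto may have split reads. *Ifi204*, an IFI16-related DNA-binding protein gene, rose from 256 ± 20.8 to 713 ± 126 CPM (log2 fold change 1.48, adjusted p = 0.000442), and *Ddx60*, a helicase gene linked to RIG-I signalling, from 65.4 ± 6.54 to 163 ± 20.3 CPM (1.32, adjusted p = 0.000399). *Tlr11* and *Tlr12* were barely detected, at no more than 0.225 and 0.129 CPM in any library.

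Of 29 trafficking genes and cofactors, 2 rose (6.90%, against 2.29% of all genes) and none fell. With pairing 4 were higher and 2 lower (13.8% and 6.90%, against 6.73% and 5.22% of all genes). *Trim25*, a ubiquitin ligase of the RIG-I pathway (log2 fold change 0.57, adjusted p = 0.0104), and *Nlrc5*, a regulator of MHC class I genes (0.94, adjusted p = 0.00595), were those past the threshold. The *Trim25* call was lost with length-scaled counts (adjusted p = 0.135) and without WT library 2 (0.0822), and that of *Nlrc5* without WT library 2 (0.0552). The chaperone gene *Unc93b1*, which brings TLR3, TLR7 and TLR9 to endosomes, was at 644, 531 and 541 CPM in WT and 626, 535 and 568 CPM in Drp1 KO, with overlapping groups (adjusted p = 0.985). *Hsp90b1*, which encodes the chaperone gp96 that folds these receptors, had every Drp1 KO library below every WT library (log2 fold change -0.37, adjusted p = 0.122) and passed with pairing (adjusted p = 0.0126).

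Of 30 adaptors, kinases and factors downstream of the sensors, 3 rose (10%, against 2.29% of all genes) and none fell. With pairing 6 were higher and 1 lower (20% and 3.33%, against 6.73% and 5.22% of all genes). *Irf7*, the transcription factor that amplifies type I interferon, was at 74.6, 21.2 and 19.3 CPM in WT and 349, 355 and 271 CPM in Drp1 KO (log2 fold change 3.09, SE 0.452, adjusted p = 0.00554). WT library 1 stood well above the other WT libraries and far below all Drp1 KO libraries. The size of the rise rested on it: the 8.51-fold difference became 16.0-fold without WT library 1 and 15.4-fold without both libraries 1. *Azi2*, a scaffold gene for the kinase TBK1, and *Mlkl*, the executioner gene of necroptosis, rose with log2 fold changes of 0.50 and 0.48 (adjusted p = 0.0263 and 0.0239). Both calls were lost with length-scaled counts (adjusted p = 0.0781 and 0.0691) and on leaving out library 2 or 3 of either genotype (adjusted p from 0.0644 to 0.188 for *Azi2* and from 0.0788 to 0.164 for *Mlkl*). *Tbk1* itself (log2 fold change -0.02, adjusted p = 0.949), *Irf3* (0.01, adjusted p = 0.990) and the TLR3 adaptor gene *Ticam1* (0.01, adjusted p = 0.990) did not pass.

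Of 21 nucleases and editors tested, which remove or mark the ligands of the sensors, 2 rose (9.52%, against 2.29% of all genes) and none fell, and with pairing 3 were higher and 2 lower (14.3% and 9.52%, against 6.73% and 5.22% of all genes). *Trex1*, the cytosolic DNA exonuclease gene, was at 5.39, 5.17 and 4.23 CPM in WT and 10.4, 13.8 and 13.4 CPM in Drp1 KO (log2 fold change 1.35, adjusted p = 0.00198). *Adar*, which edits double-stranded RNA that MDA5 would otherwise bind, went from 62.9 ± 7.90 to 109 ± 8.53 CPM (log2 fold change 0.79, adjusted p = 0.00475). The groups did not overlap for either gene, and *Adar* lost its call without WT library 2 (adjusted p = 0.0552). The median of this list was -0.0012.

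**Figure D5:**
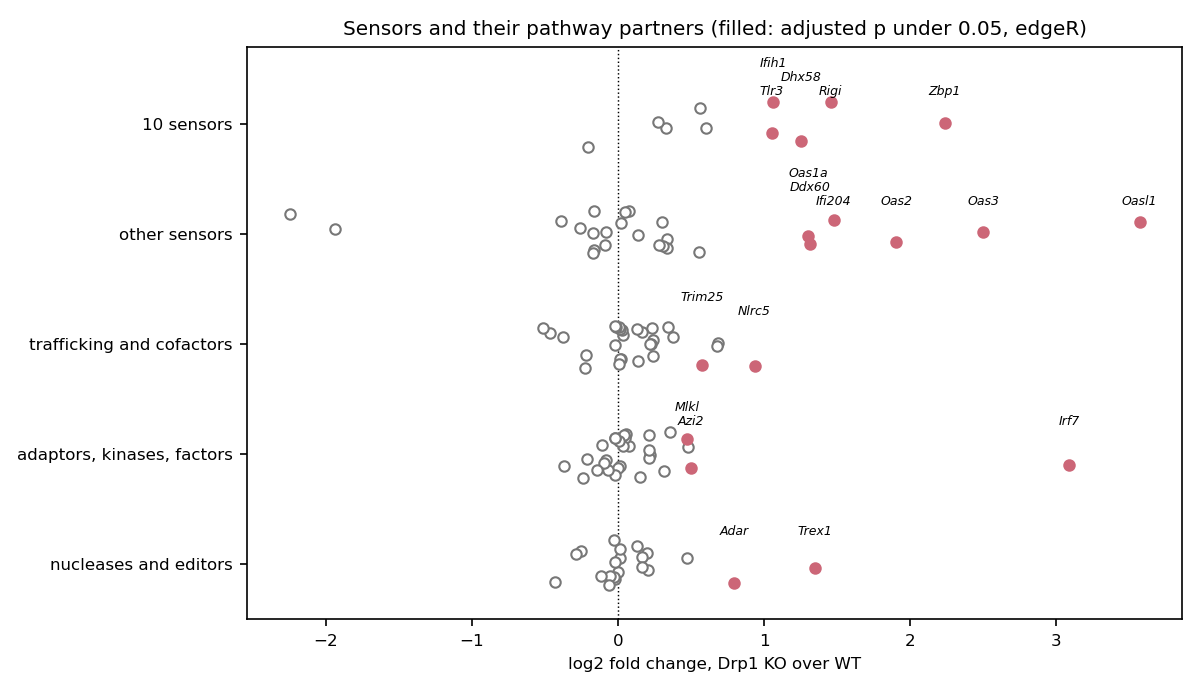
Log2 fold change (Drp1 KO over WT) of the 10 sensors and of the 106 partner genes in 4 lists, 1 point per gene, filled red and named where the edgeR adjusted p was under 0.05, with vertical scatter only for legibility. Named genes all lie to the right of 0, most of the partners cluster around 0, and the 2 points farthest to the left are the barely detected *Tlr11* and *Tlr12*.

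Pairing changed the partner counts. With libraries paired, 30 partner genes passed, 24 higher and 6 lower, and without both libraries 1 also 30, 23 higher and 7 lower. The shares of all genes were 6.73% higher and 5.22% lower with pairing, and 5.94% and 4.56% without both libraries 1, so the lower partners, 6 or 7 of 106, were near the share of all genes. The genes that were higher and passed with pairing included the DNA sensor gene *Aim2*, the RNA-dependent kinase gene *Eif2ak2* and the endosomal RNA receptor genes *Tlr8* (log2 fold change 0.34 unpaired, adjusted p = 0.00960 paired) and *Tlr13* (0.30, adjusted p = 0.0175 paired). Those that were lower included *Enpp1*, which encodes the enzyme that degrades the cGAS product (-0.46, adjusted p = 0.0699 unpaired and 0.00432 paired).

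The type I interferon response was read from a list of 14 target genes. In the unpaired fit 13 of the 14 (92.9%, against 2.29% of all genes) rose and none fell, with a median log2 fold change of 2.06 and a range from 0.98 to 3.16, and with pairing the remaining gene, *Cxcl10*, also passed (adjusted p = 0.0318, and 0.265 unpaired), where 6.73% of all genes were higher. *Usp18* (3.16), *Rtp4* (2.39) and *Oasl2* (2.23) had the largest log2 fold changes, the third nearly tied with *Ifit1* and *Ifit2* (both 2.22). Interferon genes themselves were near the limit of detection: of 8 ligand genes none had enough counts to be tested, *Ifnb1* had 5 counts, all in Drp1 KO library 3, *Ifna2* had 3 counts in Drp1 KO libraries 2 and 3, and the other 6 had none in any library, against a floor of 3 counts per library. Over all protein-coding genes tested, 600 of 15921 windows held an ISRE core, and 67 of these 600 genes (11.2%) rose in Drp1 KO, against 319 (2.08%) of the 15321 without one. The 67 include the 4 sensors with a match. These are counts with no test, and the cause of the rise was not tested.

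The genes whose levels followed each called sensor most closely over the 6 libraries were found by Pearson correlation of log2 CPM among 12238 genes. For *Rigi* they included *Dck* (r = 0.999) and *Mx1* (0.998), for *Ifih1* they were *Trim30a*, *Ddx60* and *Rnf141*, for *Dhx58* *Dck*, *Cept1* and *Tor3a*, for *Zbp1* *Irgm1*, *Ifi44* and *Ifi211*, and for *Tlr3* *Nsun4* (0.996), *Nxt2* and *P2ry10b*. The 6 points are 3 libraries of each genotype, so any gene with a clear difference between genotypes scores high. These values describe the libraries and carry no test.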

How the data were processed

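Poly(A) RNA libraries (3 WT, 3 Drp1 KO; stranded mRNA kit per the labels, whose extraction reagent differs from the one in the methods) were quantified by the authors with kallisto 0.46.1 on GRCm39. The strand setting is not given in the sources used here. The deposited tables give, per transcript, length, effective length, an estimated count that is not scaled between libraries, and TPM computed by the authors with kallisto. The submitters' notes also name DESeq2 1.44.0.

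Of 116873 transcripts, 99.4% matched GENCODE identifiers, and the unmatched ones, with 0.542% to 0.575% of a library's counts, were dropped. Gene values are sums over transcripts, of estimated counts (then rounded) and of TPM. Genes with at least 10 counts in total were fitted with edgeR 4.0.16 in R 4.3.3 (TMM, quasi-likelihood test without covariate, Benjamini-Hochberg over all 18506 genes, two-sided). The fit was tested on simulated data. An exact permutation test of 3 against 3 cannot give p under 0.1 and was not used. CPM uses TMM-scaled library sizes. Other settings were the replicate block, DESeq2 1.42.0, other scalings and filters, length-scaled counts, protein-coding transcripts only, and libraries left out. The labels number libraries 1 to 3 in both genotypes, and the pairing was taken from the data. Correlations of deviations over 12248 genes all exceeded 0.1 for libraries of the same number. Pairs with different numbers ranged from -0.481 to 0.339, so the ranges overlapped. No library was a copy of another.

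All 10 sensors are described, every partner gene with adjusted p under 0.05 (at most 8 per list), up to 3 interferon-response genes with the largest change, and the 3 genes most alike to each called sensor, of which 1 is not reported here. *Unc93b1*, *Tbk1*, *Irf3*, *Ticam1*, *Tlr11*, *Tlr12*, *Hsp90b1*, *Cxcl10*, *Ifit1*, *Ifit2*, the paired-fit partners, the dendritic cell markers and the macrophage markers were named after their values were seen. The members and lists were chosen with earlier results of these data known. Motif windows were read from the GRCm39 genome.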

Additional observations from a re-analysis of the deposited data

How the results depend on the processing

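The sensors were refitted under 15 other settings each, 150 results in all, of which 134 kept their direction and their side of the threshold and none reversed. The number of sensors called was 5, with a range of 4 to 7 when 1 library was left out, 7 with the replicate block (libraries of the same number as pairs) and 8 without both libraries 1, a setting chosen after seeing the data. Over all genes 621 were called, against 2212 with the replicate block, 1155 with DESeq2, 1065 with no filter beyond 1 count, 1880 without both libraries 1, and 181 (without WT library 2) to 904 with 1 library left out. The count was 217 with WT library 3 left out, and 268 or 348 with library 2 or 3 of Drp1 KO left out. Of the partner genes 13 were called, against 30 with the replicate block, 21 with DESeq2, 30 without both libraries 1, and 7 (without WT library 2) to 22 (without Drp1 KO library 1) with 1 library left out. The cause of these changes was not tested. A call that was missed does not show that the genotypes were alike.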
